A study of Mus musculus with 7 samples.

Results

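The genes described here are 9 that handle retinol and retinoic acid: Adh1, Adh7, Aldh1a1, Aldh1a2, Rdh10, Dhrs3, Crabp2, Cyp26b1 and Rarb. They were taken by symbol from a table of 55228 gene rows, and all 9 were present. The starting point for choosing them was the rise of Adh1, Adh7 and Aldh1a2 in Fhl2 knockout cells, so the difference of these 3 genes between genotypes is given as a description without a p-value. The other 6 were added for their role in retinol binding, conversion, clearance and signalling, with earlier results of these data known. Their p-values may thus be affected by the choice. The samples were primary granulosa cells from the ovaries of C57BL/6J mice, the somatic cells around the oocyte, with 4 libraries labelled wild type (WT) and 3 labelled Fhl2 KO, none of them treated. FHL2 is a LIM-domain cofactor of transcription factors. Neither the age of the mice, nor the knockout allele, nor any pooling of animals is given in the sources used here, and the libraries of a genotype are not stated to come from separate animals. P-values therefore measure the spread between these libraries, which may be technical.

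Retinol (vitamin A) is stored as esters, oxidised to retinal by alcohol or retinol dehydrogenases, and oxidised again to retinoic acid by the ALDH1A enzymes. Retinoic acid is carried to its nuclear receptors by binding proteins such as CRABP2, and is cleared by the CYP26 hydroxylases. In the fetal gonads of mice, retinoic acid promotes the entry of germ cells into meiosis, and CYP26B1 holds it back in the fetal testis. The receptors RAR and RXR bind DNA as pairs, typically on direct repeats of a short half-site.

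The promoters of the 3 genes that led to the choice and of Rarb, a textbook target of retinoic acid, are shown so that the retinoic acid response element of Rarb can be compared with the others. They cover 250 bases before to 50 bases after the transcript start (RefSeq, build GRCm38.p6), and capitals mark a DR5 element. A DR5 is a pair of half-sites (each AGGTCA, or else AGTTCA, or else GGGTCA, or else GGTTCA) in the same orientation with 5 bases between them, on either strand.
Rarb, chr14:16575427-16575726, minus strand: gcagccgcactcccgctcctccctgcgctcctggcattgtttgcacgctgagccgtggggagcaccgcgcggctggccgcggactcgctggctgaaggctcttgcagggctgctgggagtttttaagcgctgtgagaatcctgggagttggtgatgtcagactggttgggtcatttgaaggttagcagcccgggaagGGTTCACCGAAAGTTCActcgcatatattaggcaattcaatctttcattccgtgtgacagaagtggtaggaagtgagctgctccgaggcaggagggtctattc
Adh1, chr3:138277335-138277634, plus strand: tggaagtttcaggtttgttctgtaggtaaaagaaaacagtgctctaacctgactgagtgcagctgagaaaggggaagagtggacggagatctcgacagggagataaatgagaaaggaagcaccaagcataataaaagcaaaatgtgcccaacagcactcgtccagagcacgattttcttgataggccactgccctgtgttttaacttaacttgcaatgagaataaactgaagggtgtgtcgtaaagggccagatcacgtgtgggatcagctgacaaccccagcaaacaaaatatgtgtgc
Adh7, chr3:138217523-138217822, plus strand: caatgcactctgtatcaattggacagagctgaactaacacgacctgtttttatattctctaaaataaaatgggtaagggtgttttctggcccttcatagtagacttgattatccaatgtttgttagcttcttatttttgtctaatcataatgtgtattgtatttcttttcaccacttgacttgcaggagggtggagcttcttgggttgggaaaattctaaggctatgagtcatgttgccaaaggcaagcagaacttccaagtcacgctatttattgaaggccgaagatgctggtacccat
Aldh1a2, chr9:71215539-71215838, plus strand: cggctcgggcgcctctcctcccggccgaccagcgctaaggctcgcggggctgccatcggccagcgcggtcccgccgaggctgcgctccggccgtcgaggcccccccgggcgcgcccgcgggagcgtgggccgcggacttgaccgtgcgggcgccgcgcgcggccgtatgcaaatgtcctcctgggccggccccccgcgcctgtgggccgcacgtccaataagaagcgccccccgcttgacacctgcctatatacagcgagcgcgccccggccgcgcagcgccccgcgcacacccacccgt
Of the 9 genes, 7 had a promoter in the RefSeq table, and only the Rarb window held a DR5, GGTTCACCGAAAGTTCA, which begins 53 bases before the start. Of all 32851 promoters in the table, 32 (0.0974%) held one. Promoters were in the table for 45 of the 57 genes of the wider retinoid list, and only these were searched. Among the wider list of 57 retinoid genes described below, Cyp26a1 was the other gene with a DR5 (on the opposite strand, read here in the promoter's direction as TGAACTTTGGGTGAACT, chr19:37697558-37697857, plus strand). Repeats with a spacer of 2 bases (DR2, in 0.268% of promoters) or 1 base (DR1, 0.222%), and the letters AAGGTCA (4.72%, either strand), a site type bound by NR5A receptors that contains the half-site AGGTCA, were in none of the windows of these 7 genes. The Aldh1a2 window was 78.0% G or C, with 50 CG dinucleotides, against 45.3% and 6 for Adh1 and 39.3% and 3 for Adh7. The Adh1 window lies inside the span annotated for the gene below, at the start of a transcript that begins downstream of the outermost one.

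The 7 libraries held 38855596 to 50514556 counts each. Fhl2 itself stood at 101 to 114 CPM (counts relative to the TMM-scaled library total) in WT and at 47.9 to 66.8 CPM in KO, so reads of the targeted gene remained in each KO library. Other properties also differed between the genotypes. Long transcripts were under-represented in KO libraries 2 and 3, in which log2 CPM changed per doubling of transcript length by -0.134 and -0.112 relative to the mean of all libraries, against -0.00359 in KO library 1 and 0.0503 to 0.0728 in WT. Summed over 6 lung genes, such as the surfactant genes Sftpc and Sftpb, the level was 11.1, 27.0 and 0.966 CPM in KO libraries 1 to 3 and 0.0214 to 0.232 CPM in WT. Values corrected for transcript length and GC are given where they bear on a gene.

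The members spanned a wide range of levels. Compared per transcript length in WT, in TPM (counts divided by exon length and scaled to the same total in each library, computed here), Aldh1a1 stood highest at 6422 ± 216 (SD, n = 4) and ranked 5 to 9 among all genes in the WT libraries. Crabp2 came next at 1302 ± 38.6 TPM, Cyp26b1 followed at 485 ± 20.3 TPM, and Adh1 stood at 95.9 ± 2.89 TPM. Rdh10 was at 7.69 ± 0.390 TPM. The next 3 genes overlapped with their neighbours between libraries: Aldh1a2 at 1.58 ± 0.242, Dhrs3 at 1.21 ± 0.295 and Adh7 at 0.862 ± 0.203 TPM. Rarb had 0 counts in every library. The WT cells thus carried abundant transcripts of one retinal dehydrogenase, one acid-binding protein and one clearing enzyme, and few of the other members. In KO the order changed in 2 places. Adh1 reached 397 ± 32.1 TPM (SD, n = 3) and overlapped with Cyp26b1 at 359 ± 79.8 TPM, while Adh7 at 4.60 ± 0.475 TPM overlapped with Aldh1a2 at 4.44 ± 0.669 TPM, above Dhrs3 at 2.06 ± 0.373 TPM.

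**Figure D1:**
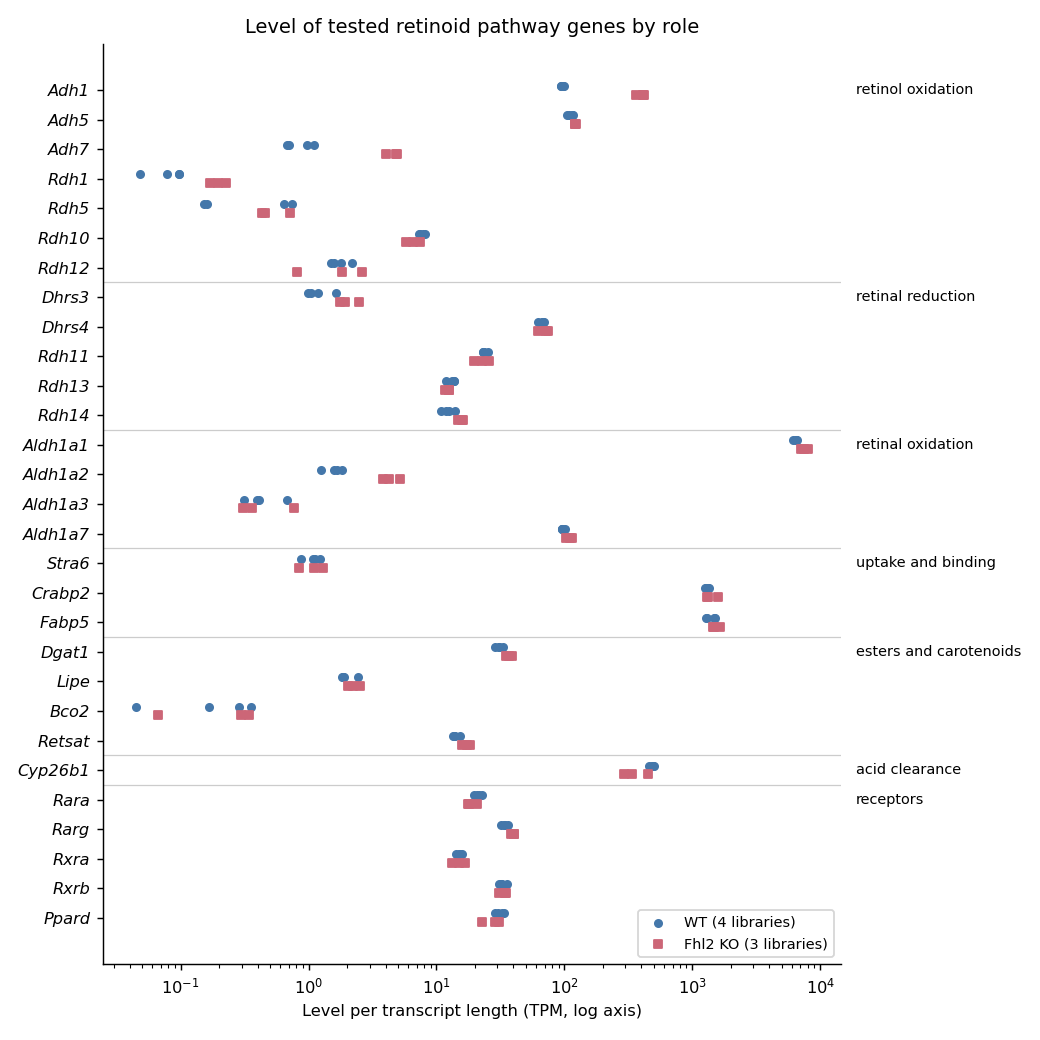
Level of tested genes of the retinoid list in each library, in TPM on a log axis, grouped by role, with WT libraries as circles and Fhl2 KO libraries as squares. Aldh1a1 stands highest in all 7 libraries, and Adh1 moves from about the level of Adh5 in WT to that of Cyp26b1 in KO.

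Among genes that oxidise retinol, Adh1 and Adh7 were higher in KO. Adh1, the class I alcohol dehydrogenase and a retinol-oxidising enzyme of mice, was at 60.3, 61.4, 58.7 and 58.1 CPM in WT libraries 1 to 4 and at 226, 281 and 281 CPM in KO libraries 1 to 3. Each KO library lay above every WT library, and KO library 1 was the lowest of the 3. The log2 fold change was 2.14 (SE 0.0947, n = 4 WT and 3 KO), or 4.40-fold, and it lay between 1.92 and 2.26 under the alternative settings. Adh7, the class IV enzyme known from epithelia of the upper digestive tract, was at 1.37, 0.976, 1.58 and 1.01 CPM in WT and at 6.96, 6.29 and 7.69 CPM in KO. The libraries of the genotypes were again apart, at 44 to 74 counts in WT and 273 to 350 in KO, with a log2 fold change of 2.50 (SE 0.192; 2.41 to 2.66 under the alternatives in which it was tested). Rdh10, the dehydrogenase that carries most retinol oxidation in the mouse embryo, stood at 11.0 to 12.1 CPM in WT and at 11.1, 10.5 and 9.35 CPM in KO, so the libraries overlapped. Its log2 fold change of -0.15 (SE 0.115, edgeR adjusted p = 0.348) did not pass the threshold of 0.05. Rdh1, a further retinol dehydrogenase gene, had 3 to 19 counts per library and did not pass (1.37, SE 0.527, edgeR adjusted p = 0.0599). The shares of these transcripts restate the difference in Adh1 and Adh7 for which the genes were chosen, and are given as a description. Of the summed TPM of Adh1, Adh5, Adh7 and Rdh10, Adh1 took 44.4 ± 1.31% in WT (SD, n = 4) and 74.8 ± 1.68% in KO (SD, n = 3), Adh5 took 51.6 ± 1.49% and 23.1 ± 1.37%, and Adh7 took 0.401 ± 0.103% and 0.871 ± 0.123%.

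Adh1 and Adh7 are neighbours on the plus strand of chromosome 3 (138260991 to 138290698 and 138217760 to 138233382, GRCm38), in a cluster of alcohol dehydrogenase genes. Adh5, the class III enzyme that oxidises glutathione-bound formaldehyde, lies in the same cluster and was at 69.5 to 77.8 CPM in WT and 82.4 to 89.7 CPM in KO, a log2 fold change of 0.22 (SE 0.0862, edgeR adjusted p = 0.0607) that fell to 0.07 after the length and GC correction. Adh4, Adh6a and Adh6b had at most 2 counts in any library, with Adh6a at 0 in all. Of 13 genes listed in and around the cluster, 10 were tested, and Adh1 and Adh7, chosen for their rise, are set aside here. Of the other 8, 1 rose and 2 fell, beside 29.0% of all genes called in either direction. Tspan5, a tetraspanin gene, rose (0.54, SE 0.100, edgeR adjusted p = 0.00143). Trmt10a, a tRNA methyltransferase gene beside Adh7, fell (-0.43, SE 0.121, 0.0145), as did Rap1gds1, a guanine nucleotide exchange factor gene (-0.45, SE 0.114, 0.00860). Both stayed lower but no longer passed without KO library 3 (-0.37, edgeR adjusted p = 0.0888 and -0.38, 0.0756). The same held for Trmt10a without KO library 2 (-0.33, 0.0676). Of the other 8, Tspan5 alone passed without KO library 3. With KO library 1 set alone against WT, the log2 fold changes of Tspan5, Trmt10a and Rap1gds1 were 0.40, -0.16 and -0.13. With the correction for length and GC, Tspan5, Trmt10a and Rap1gds1 still passed, beside 3416 of 15574 genes called in all. Metap1 (0.30, edgeR adjusted p = 0.0145), Eif4e (0.33, 0.0045) and Dnajb14 (0.30, 0.0143) newly passed there, each as higher in KO. Short antisense transcripts overlap 136 of 2233 exon bases of Adh1 and 108 of 3787 of Adh7.

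**Figure D2:**
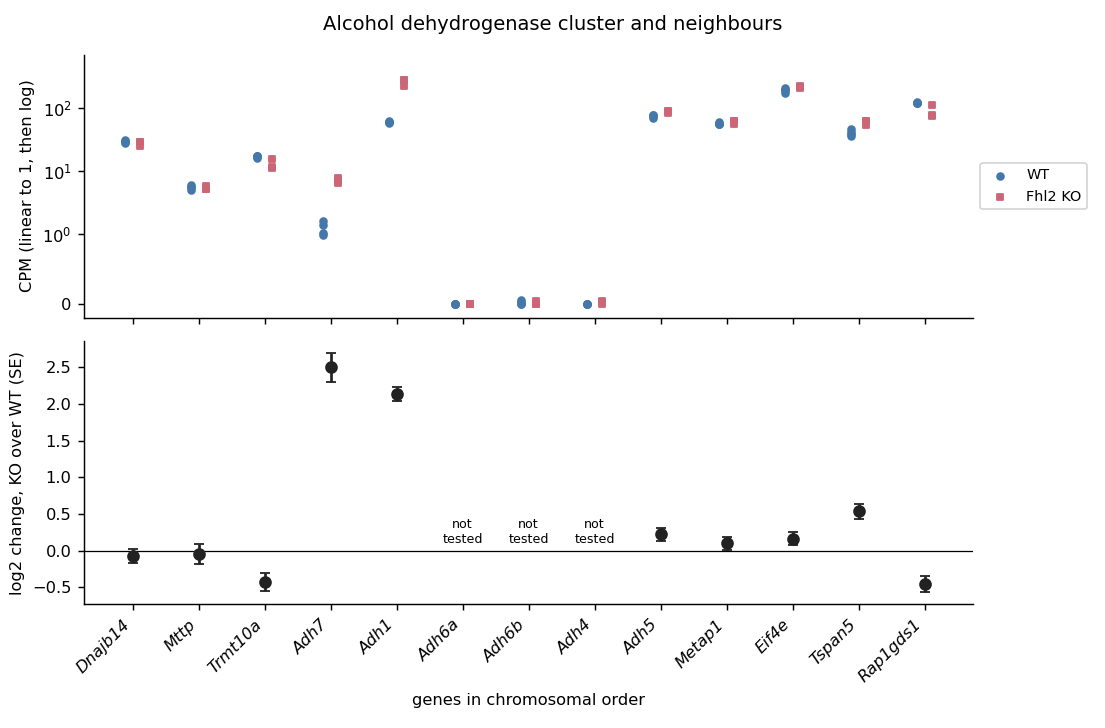
Genes in and around the alcohol dehydrogenase cluster of chromosome 3 in chromosomal order, with CPM in each library above (linear below 1 CPM, log above) and the log2 fold change of KO over WT with its SE below. Adh7 and Adh1 stand at 2.50 and 2.14, whereas the other tested genes lie between -0.45 and 0.54.

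Retinal is turned back into retinol by reductases. Of 5 tested genes of this role, 2 rose, Dhrs3 and Rdh14, beside 13.5% of all genes called higher. Dhrs3, a retinal reductase that limits retinoic acid formation in the mouse embryo and is itself induced by the acid, was at 1.19, 1.65, 1.01 and 1.05 CPM in WT and at 2.52, 1.94 and 2.11 CPM in KO. WT library 2 was the highest of its group and still below each KO library. The log2 fold change was 0.83 (SE 0.245, edgeR adjusted p = 0.0185), at 46 to 83 counts per WT library. Leaving out WT library 3, WT library 4 or KO library 3 gave edgeR adjusted p-values of 0.0571, 0.0539 and 0.0629, so Dhrs3 no longer passed, within 0.0109 to 0.0927 over the alternatives in which it was tested. Rdh14 rose by 0.43 (SE 0.126, edgeR adjusted p = 0.0181), but by 0.25 after the length and GC correction (0.141), and leaving out WT library 4 or KO library 3 gave 0.0543 and 0.0585, within 0.00840 to 0.259. Dhrs4, Rdh11 and Rdh13 had log2 fold changes of -0.01 to 0.14 and did not pass.

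The ALDH1A enzymes make retinoic acid from retinal. Aldh1a1, the predominant one in these cells, was at 6027, 6504, 6639 and 6473 CPM in WT and at 8011, 7684 and 8158 CPM in KO. All KO libraries lay above all WT libraries by a modest margin. The log2 fold change was 0.31 (SE 0.0857, edgeR adjusted p = 0.0134), or 1.24-fold. After the length and GC correction it was 0.25 (0.0191), and with a correction for length alone 0.20 (0.0753). Leaving out WT library 1 gave 0.0550 and KO library 3 gave 0.0606, so Aldh1a1 no longer passed, within 5.95e-04 to 0.0764 over the alternatives. Aldh1a2, the ALDH1A enzyme that supplies most retinoic acid to the mouse embryo and is known from mesothelium, was at 1.16, 1.49, 1.58 and 1.72 CPM in WT and at 3.67, 5.29 and 4.41 CPM in KO. Its libraries were apart, at 45 to 75 counts in WT and 144 to 248 in KO, and its log2 fold change was 1.58 (SE 0.199; 1.29 to 1.72 under the alternatives in which it was tested). The larger fold change belonged to the rarer transcript, Aldh1a2, but that gene was chosen for its rise, so this is a description. Aldh1a1 was 4137 ± 562 times as abundant as Aldh1a2 per length in WT (SD, n = 4) and 1728 ± 345 times in KO (SD, n = 3), and it took 98.5 ± 0.0426% and 98.5 ± 0.144% of the summed Aldh1a TPM.

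Aldh1a7, a rodent gene next to Aldh1a1 on chromosome 19, is a close copy of it, with 88.8% identity over 2036 aligned transcript bases, so reads may be shared between the 2 genes. It took 1.49 ± 0.0439% of the summed Aldh1a TPM in WT and 1.45 ± 0.137% in KO. It rose with a log2 fold change of 0.27 (SE 0.0899, edgeR adjusted p = 0.0340), but 0.17 with the length and GC correction (0.0906). It no longer passed when WT libraries 1, 2 or 4 were left out (0.0824, 0.0583 and 0.0959), nor when KO libraries 2 or 3 were (0.0732 and 0.176), within 7.95e-04 to 0.607. Aldh1a3, the third ALDH1A gene, had 22 to 59 counts per library and did not pass (0.14, SE 0.376, edgeR adjusted p = 0.821).

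**Figure D3:**
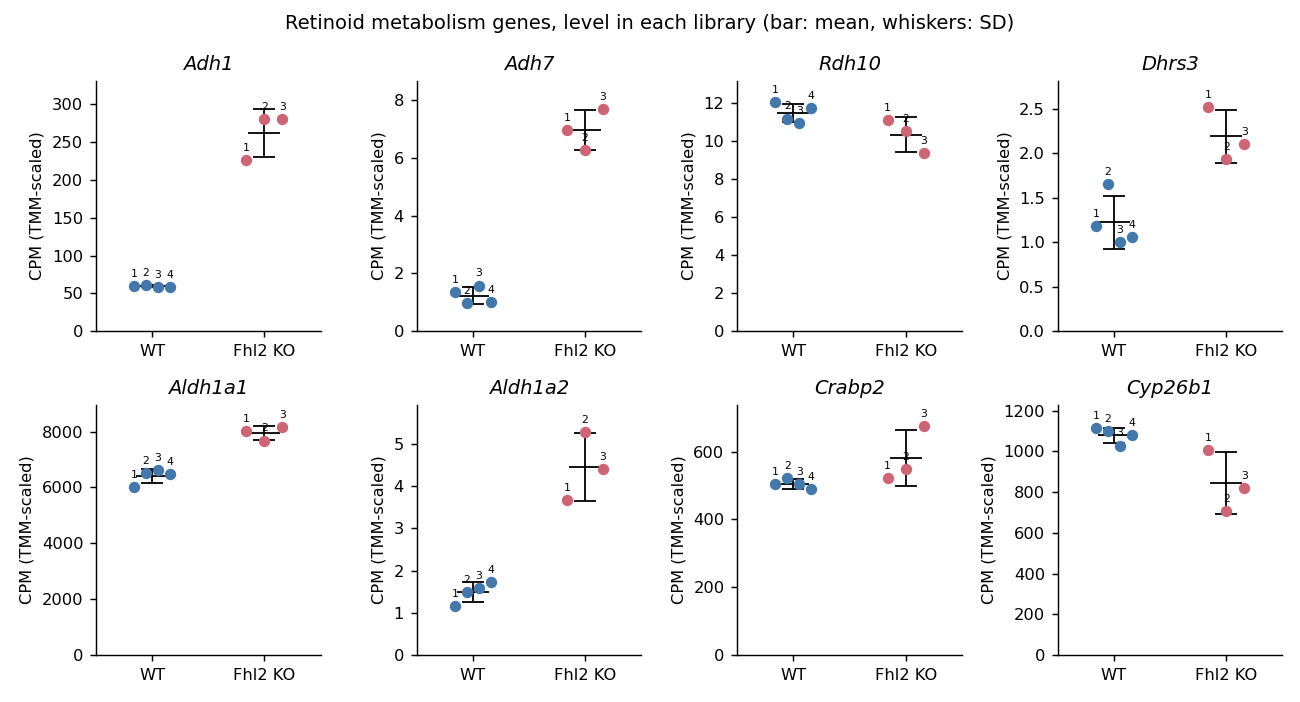
CPM of the 8 detected members in each library, numbered by replicate, with the mean (bar) and SD (whiskers) of each genotype and axes starting at 0. The KO points of Adh1, Adh7 and Aldh1a2 lie far above the WT points, those of Aldh1a1 and Dhrs3 lie above them by less, those of Cyp26b1 lie below, and those of Rdh10 and Crabp2 overlap with WT.

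Among binding proteins, Crabp2, which delivers retinoic acid to its receptors in the nucleus, was at 505, 524, 503 and 489 CPM in WT and at 522, 548 and 675 CPM in KO. KO library 1 lay within the WT range and KO library 3 stood highest. The log2 fold change of 0.20 (SE 0.0969, edgeR adjusted p = 0.125) did not pass and turned to -0.05 with the length and GC correction and to -0.08 with that for length alone. Leaving out KO library 3 gave 0.08 (0.596), whereas leaving out KO library 1 gave 0.29 (0.00622), voom gave 0.29 (0.00818) and KO library 3 alone against WT gave 0.43 (2.48e-04), within 2.48e-04 to 0.839. At 931 exon bases Crabp2 was the shortest of the members. Fabp5, which carries the acid to PPARD, overlapped with Crabp2 in WT (1394 ± 113 TPM) and did not pass (0.22, SE 0.0986, edgeR adjusted p = 0.0987). The retinol transporter gene Stra6 did not pass either (0.08, SE 0.237, edgeR adjusted p = 0.825). None of the 4 tested genes of uptake and binding were called, beside 29.0% of all genes called in either direction, and 4 genes are too few to set against that share. Crabp1, the other cellular retinoic acid-binding protein gene, had at most 5 counts in any library.

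Of the 3 enzymes that clear retinoic acid, 1 was detected. Cyp26b1 was at 1114, 1098, 1029 and 1080 CPM in WT and at 1006, 706 and 819 CPM in KO, whereas Cyp26a1 and Cyp26c1 had 0 counts in all 7 libraries. Each KO library of Cyp26b1 lay below every WT library, KO library 1 by only a small margin. The log2 fold change was -0.36 (SE 0.107, edgeR adjusted p = 0.0205), and -0.26 after the length and GC correction (0.0258). It no longer passed with the correction for length alone (-0.19, 0.136) or when WT libraries 1 or 4 (0.0659 and 0.0532) or KO libraries 2 or 3 (0.125 and 0.0967) were left out. When only KO library 1 was set against WT, the log2 fold change was -0.10 (0.564), the upper end of a range that began at 8.46e-05. With Aldh1a1 higher and Cyp26b1 lower, the TPM ratio of the 2 genes within a library was 12.1, 13.2, 14.4 and 13.4 in WT and 17.8, 24.3 and 22.2 in KO. The mean ratio was 13.3 ± 0.954 in WT (SD, n = 4) and 21.5 ± 3.34 in KO (SD, n = 3). This ratio does not depend on how libraries are scaled to each other, but Cyp26b1 is the longer transcript (5352 against 2395 exon bases), and length moved with genotype as given above.

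Rarb, the retinoic acid receptor gene with the DR5 shown above, had 0 counts in each library. So had Cyp26a1, the other of the searched retinoid genes with a DR5 in its promoter window. A floor of 3 counts corresponds to 0.0598 to 0.0775 CPM per library. Such a floor covers counting error only, since the reads are not stated to carry molecular identifiers. Of the exon bases of Rarb, 1793 of 5265 are also covered by Top2b on the opposite strand, a gene with 6153 to 10357 counts per library, and how reads in shared bases were assigned is not given in the sources used here. The other retinoic acid receptors were present. Rarg was at 45.4 to 50.9 CPM in WT and at 54.7 to 62.7 CPM in KO, so the libraries did not overlap, and it rose by 0.32 (SE 0.0906, edgeR adjusted p = 0.0153; corrected 0.25, 0.0199). Leaving out KO library 3 gave 0.0825, and setting only KO library 1 against WT gave 0.366, within 6.04e-04 to 0.366. Rara (-0.09, SE 0.0921, edgeR adjusted p = 0.492), Rxra (0.07), Rxrb (0.11) and the fatty acid receptor gene Ppard (-0.12) did not pass. Rarg took 61.6 ± 1.33% of the summed TPM of Rara, Rarb and Rarg in WT and 68.0 ± 2.65% in KO.

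Of 20 listed genes known to respond to retinoic acid, 10 were tested, 2 rose, 2 fell and 6 did not pass. The share called was 40.0%, near the 29.0% of all genes called, and their median log2 fold change was -0.04. With WT library 4 or KO library 3 left out, 2 passed, and with KO library 1 left out, 6 did. This list includes 4 members. Besides Dhrs3 and Cyp26b1, described above, Rec8 rose and Tgm2 fell. Rec8, a meiotic cohesin gene that is induced by retinoic acid in germ cells of mice, was at 2.07, 2.03, 1.43 and 1.33 CPM in WT and at 4.59, 5.16 and 4.46 CPM in KO, with no overlap (log2 fold change 1.47, SE 0.196, edgeR adjusted p = 8.42e-05). Stra8, the other meiotic target on the list, had counts in 1 library, at 6. Tgm2, a transglutaminase gene induced by retinoic acid in many cells, was at 7.49, 10.5, 7.46 and 7.65 CPM in WT and at 3.90, 3.79 and 5.05 CPM in KO, also with no overlap (-0.96, SE 0.164, edgeR adjusted p = 7.66e-04). Genes that overlap Tgm2 on the opposite strand share some of its exon bases. Cdx1, Hoxb1 and Hoxa4 had 0 counts in all libraries, and Hoxa3 and Hoxa5 had at most 2.

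Over the members together, 6 of 8 tested were called, 5 higher and 1 lower, and the libraries of the genotypes did not overlap for the same number, 6 of 8. The backgrounds are 29.0% of 15798 tested genes called (13.5% higher, 15.6% lower) and 34.2% with no overlap (16.4% with KO above, 17.7% with KO below). Without KO library 3, 3 members were called, and without WT library 1 or WT library 4, 4 were. Since 3 of the members were chosen for this contrast, nothing is read from their count. The ninth member, Rarb, did not pass the filter on low counts. The wider list of the retinoid pathway held 57 genes, of which 30 were tested, with 10 higher, 1 lower and 19 not past the threshold. These calls were 36.7% of the list's tested genes, near the background of 29.0%, and 6 of the 11 were members. The median log2 fold change was 0.22 on the list and -1.84e-04 over all genes tested. The list median includes Adh1, Adh7 and Aldh1a2, chosen for their rise, and is given as a description. Leaving out KO library 3 left 3 of the 30 past the threshold, and leaving out WT library 4 left 7. Of 27 genes not tested, 11 had 0 counts throughout, among them Rpe65, the retinyl ester isomerase gene, and no other exceeded 16 counts in a library.

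Of 4 tested genes that handle retinyl esters and carotenoids, 2 rose, beside 13.5% of all genes called higher. Retsat, which saturates retinol, averaged 17.7 ± 0.901 CPM over the 4 WT and 23.0 ± 2.72 CPM over the 3 KO libraries (± SD), with no overlap (log2 fold change 0.38, SE 0.106, edgeR adjusted p = 0.0136; corrected 0.38). Dgat1, an acyltransferase that makes triglycerides and can esterify retinol, was at 22.6 to 25.7 CPM in WT and 27.9 to 33.3 CPM in KO (0.36, SE 0.0977, 0.0130; corrected 0.13, 0.233). Both calls were lost without KO library 3 (edgeR adjusted p = 0.0951 for Retsat and 0.0848 for Dgat1), within 4.59e-04 to 0.505 and 6.12e-04 to 0.382. Lrat, the main retinol esterifying enzyme, had 2 counts in a single library.

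**Figure D4:**
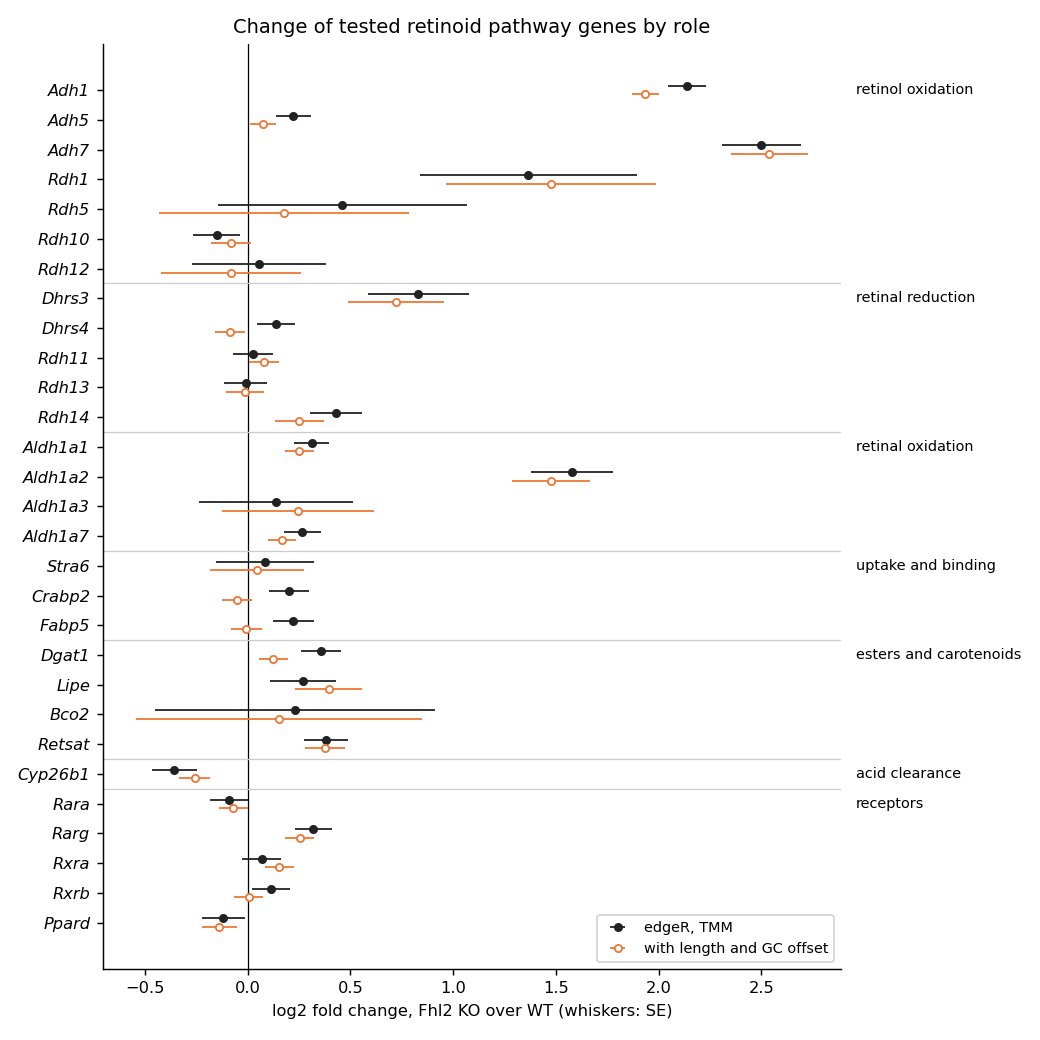
Log2 fold change of KO over WT with its SE for tested genes of the retinoid list by role, as fitted (filled) and with the length and GC offset (open). Adh1, Adh7 and Aldh1a2 lie above 1 under both, as does Rdh1 with a wide error at low counts, and Crabp2 and Fabp5 move from above 0 to just below it.

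Markers of other cell types were read beside these genes, since in bulk samples fewer cells of a type and less RNA per cell cannot be told apart. Of all genes tested, 13.5% were called higher. Luteal markers summed to 1028 to 1105 CPM in WT and 2483 to 2732 CPM in KO, with 6 of 7 tested genes higher. Surface epithelium markers summed to 114 to 131 and 144 to 186 CPM, with 6 of 9 tested genes higher. Both sums were higher in KO, as were Adh1, Adh7 and Aldh1a2. None of the genes in these sets were at 0 throughout, though the luteal marker Ptgfr had 0 counts in WT and 29 to 44 in KO. The part of both sets in the result was not tested. The lung marker sum, with 2 of 2 tested genes higher, was also higher in KO, and its part in the result was not tested. In KO libraries 1, 2 and 3 the lung sum was 79.0, 192 and 6.87 times the WT mean. Adh1 was at 3.79, 4.71 and 4.71 times its WT mean there, Adh7 at 5.64, 5.10 and 6.23 times, and Aldh1a2 at 2.47, 3.55 and 2.96 times. With KO library 3 alone against WT, a setting chosen after seeing the data, the log2 fold changes of these 3 genes were 2.25, 2.66 and 1.58. This setting rests on 1 KO library and on genes chosen for their rise, so nothing is read from it.

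Granulosa markers summed to 4966 to 5643 CPM in WT and 4348 to 5210 CPM in KO, with 3 of 10 tested genes higher and 6 lower. The shares of all tested genes called, beside these and the counts below, were 13.5% higher and 15.6% lower. Cyp19a1, the aromatase gene that marks estradiol-producing granulosa cells, had 0 counts in each WT library and 6 to 17 in KO. The other lists summed, in WT and then in KO, to 62.3 to 67.5 and 35.1 to 44.7 CPM for theca, 365 to 423 and 118 to 164 for stroma, and 883 to 977 and 466 to 543 for smooth muscle. Of the tested genes, 2 of 3 theca, 5 of 7 stroma and 5 of 6 smooth muscle markers fell and none rose, with Dcn (0.42), Lum (-2.34) and Des (-0.04) among those that did not pass. For endothelium the sums were 1.69 to 2.57 and 1.65 to 2.56 CPM, for leukocytes 21.3 to 22.6 and 20.3 to 25.5, and for oocytes 2.53 to 7.85 and 3.84 to 9.84. The theca markers Cyp17a1 and Insl3 had at most 3 counts in any library, Rgs5 of the smooth muscle list and Cd3e of the leukocyte list had 0. Of the 7 oocyte markers, Gdf9, Bmp15, Zp1, Zp2 and Zp3 had counts in each library, Oosp1 had 0 in WT library 3, and Figla had 4 counts in WT library 4 and 0 elsewhere. The part of these cells in the results was not tested.

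**Figure D5:**
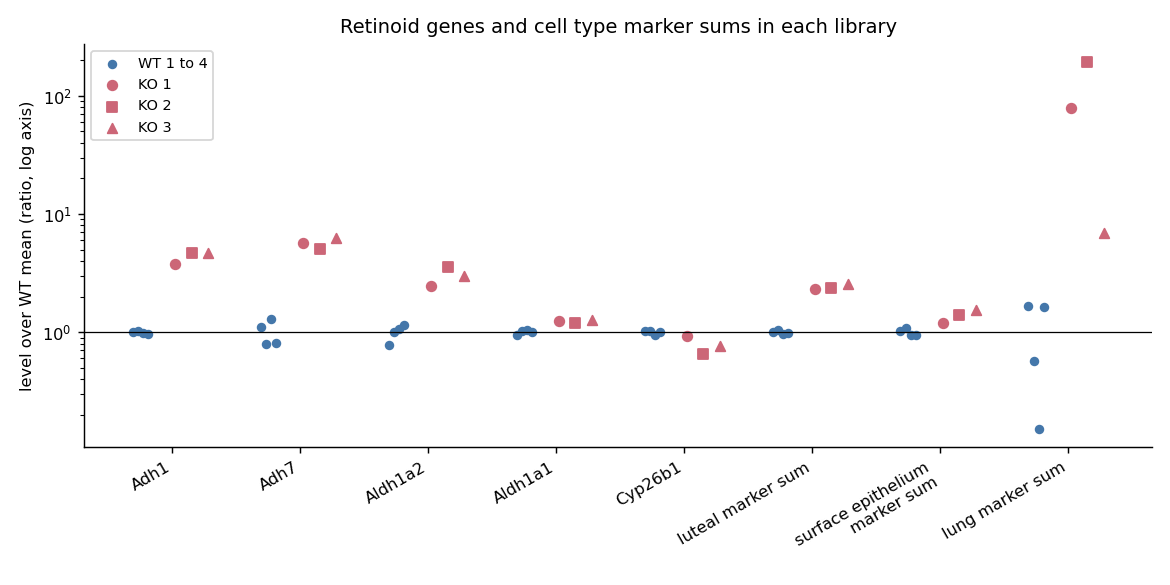
Level in each library relative to the WT mean (log axis) for 5 members and for the summed markers of luteal cells, surface epithelium and lung, with KO libraries 1 to 3 as separate symbols. The lung sum stands at 79.0, 192 and 6.87 times the WT mean in KO libraries 1 to 3, and the luteal sum at 2.33, 2.36 and 2.57 times.

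The genes whose log2 CPM followed the 3 leading members most closely over the 7 libraries were listed as a description. The libraries fall into genotype groups, so a high correlation follows from any clear difference between them: 765 of 8772 other genes above 10 CPM correlated with Adh1 at Pearson r over 0.9, 324 of 8773 with Adh7 and 699 of 8773 with Aldh1a2. For Adh1 the closest were Hsd3b1, an enzyme of progesterone synthesis (r = 0.997), Id3, an inhibitor of helix-loop-helix factors (0.997), Mxra8 (0.996) and Fdx1, the electron donor of mitochondrial steroid hydroxylases (0.996). For Aldh1a2 they were the linker histone gene H1f0 (0.998), Id1 (0.996), Mgarp (0.994) and the glutathione transferase gene Gsta4 (0.994). For Adh7 they were Rab33a (0.991), Tgfb1i1 (0.990), Slc25a35 (0.988) and the flavin mono-oxygenase gene Fmo5 (0.986).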

How the data were processed

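The authors deposited raw read counts per gene symbol, not normalized, for 7 libraries of mRNA. Per the submitters' processing notes, the tools were HISAT2 2.2.1, featureCounts 1.6.4, DESeq2 1.28.1, Cufflinks 2.2.1, fastp and SAMtools and the build was mm10, with no role stated. The strand setting and the annotation release are both not given in the sources used here. The genotype difference was fitted with edgeR 4.0.16 under R 4.3.3 (filterByExpr at minimum count 10, TMM, robust quasi-likelihood F test, genotype alone, Benjamini-Hochberg over 15798 genes). The steps were tested on simulated data. Total counts per library limit precision, and 3 counts served as the floor. CPM used TMM-scaled totals. Lengths (exons of basic transcripts), GC content and coordinates came from GENCODE M21 (GRCm38, the same build as mm10), with values for 98.6% of tested genes, and transcript identity from blastn 2.17.0. Corrections entered each library's spline (4 degrees of freedom) of log2 CPM on length, or on length and GC, as an offset.

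Values of 2 listed genes are not reported here. Libraries were grouped by their labels. Replicate numbers were not used to pair them in the genotype fit. No libraries were duplicates (chi-square per degree of freedom of 9.72 or more). All members were named, as were the genes past adjusted p 0.05 on the retinoid, responsive and cluster lists and, for each of the 3 leading members, the 4 genes with the highest correlation. Other genes named, such as those at 0 or not past the threshold, were chosen after their values were seen. Members and lists were chosen with earlier results of these data known. Alternatives were DESeq2 1.42.0, voom (limma 3.58.1), 1 surrogate variable (sva 3.50.0), other scalings and filters, a replicate block, left-out libraries and single KO libraries.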

Additional observations from a re-analysis of the deposited data

Results flagged for a closer look

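Among 19 named genes, 2 had a WT library whose gap to the other 3 was wide relative to the range of the WT libraries. Chance alone sets about 1 in 20 such groups apart, and a gap that is wide in this sense can be small in CPM. Tgm2 stood at 10.5 CPM in WT library 2 against 7.46 to 7.65 in the others, farther from the KO libraries, and Trmt10a stood at 16.1 CPM in WT library 2 against 17.1 to 17.2.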

How the results depend on the processing

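Adh1, Adh7 and Aldh1a2 stayed higher in KO in each alternative in which they were tested. They were chosen for their rise in these same libraries, so this is a description. Fhl2, Rec8 and Tgm2 stayed past the threshold in each alternative in which they were tested. Over 19 named genes, 350 of 412 values under alternatives kept their direction and side of the threshold, 57 no longer passed, 3 newly passed (all Crabp2) and 2 reversed: Crabp2 at -0.079 with the length offset and -0.053 with the length and GC offset. For other shifts the cause was not tested. Of the 19 genes, all but Rdh10 and Crabp2 passed in the genotype fit described above, so only these 2 could newly pass. The counts of values also include Adh1, Adh7 and Aldh1a2, which were chosen for this contrast. Of all genes, 4588 were called; 2938 were with the length offset, 781 for KO library 1 alone, 2960 in the 6 libraries numbered 1 to 3, and 1657 to 6740 with a library left out. Voom called 6527 and 1 surrogate variable 3094. Of the members, 6 were called, 3 with a filter of 10 CPM (fewer genes tested), 4 with the length offset, in the 6 libraries or for KO library 1 alone, and 3 to 7 with a library left out. Of the retinoid list, 11 were called, 6 with the length offset, 4 for KO library 1 alone, and 3 to 14 with a library left out. Of the responsive list, 4 were called, 1 with 10 CPM, 2 for KO library 1 alone, and 2 to 6 with a library left out. Of the cluster, with Adh1 and Adh7 included in the count, 5 were called, 8 with either offset, and 3 to 7 with a library left out. The deviations of same-numbered libraries from their group means correlated at -0.0324 to 0.0326. No shared deviation was seen, which does not settle whether the numbers pair samples. With the replicate block in the 6 libraries, 3301 of all genes, 5 members, 5 of the retinoid list, 4 responsive and 5 cluster genes were called, against 2960, 4, 7, 2 and 5 without it. The floor of 3 counts lies at 0.0598 to 0.0775 CPM, so levels below it are not told apart from 0 at this depth.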
